A study of Anas platyrhynchos with 6 samples.

Results

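The miR-29 family in the duck duodenum comprised 35 of the 1568 miRNA names listed for each library, taken as every name that reads miR-29, with or without a letter, once the species prefix is dropped. The names carried 19 species prefixes, among them 5 names with the chicken prefix gga and 0 with the duck prefix apl. They stood for miR-29a (10 names), miR-29b (15 names), miR-29c (7 names) and miR-29d (3 names). Names with the same reads in all 6 libraries cannot be told apart, and counting these once left 17 distinct sets of reads, of which 16 had at least 1 read. The ducks were Nonghu No. 2 birds selected at 90 days of age. In a trial of 10 days, the cage rearing (CR) group was moved into cages and the traditional breeding (TB) group stayed on the floor, with the same feed and surroundings. The series holds small RNA libraries from the duodenum of 3 CR and 3 TB samples. The sources do not say how many birds stand behind a library, so that p-values measure the spread between these samples only.

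miR-29 miRNAs are known in mammals as repressors of collagens and other matrix proteins. They pair through a shared seed with sites in the mRNAs of fibrillar collagens, elastin and fibrillin, and fibroblasts lower them under TGF-beta. In mammals miR-29a lies beside one copy of miR-29b and miR-29c beside the other copy, and each hairpin gives a 3p arm, which carries the seed, and a 5p arm. In the mammalian gut, miR-29b has been tied to epithelial growth and to the tight junction protein claudin-1.

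Values are RPM, the reads of a name scaled so that a library sums to 1000000. Summed over all names, the 6 libraries held 1500905 to 11395209 reads, lowest in CR replicate 2. There 1 read is worth 0.666 RPM, and a read was worth between 0.0878 and 0.175 RPM elsewhere. As many names share reads, these sums count the same reads more than once, and so does the RPM scale. CR replicate 2 and TB replicate 1 stood apart from the rest over all 662 tested names. Their log2 values correlated with each other at 0.968 across names, and with the other 4 libraries at 0.737 to 0.818, while those 4 correlated among themselves at 0.982 to 0.992. Group differences of the miR-29 sets that rest on CR replicate 2 or TB replicate 1 are given with and without them. The labels name intestinal epithelial cells, whereas the methods describe washed pieces of duodenum, and smooth muscle miRNAs were abundant too. The epithelial list (miR-192, miR-194, miR-215, miR-200a, miR-200b and miR-429) summed to 35535 to 137014 RPM in CR and to 47147 to 185618 RPM in TB, beside 91168 to 198015 RPM in CR and 118822 to 162156 RPM in TB for the smooth muscle miRNAs miR-143 and miR-145. In such bulk samples, fewer cells of a type and less RNA per cell cannot be told apart.

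The family was scarce in this tissue. Its most abundant set of reads ranked 322 by mean RPM among the 830 distinct sets detected in the series. This set was listed under gga-miR-29a-3p, gga-miR-29c-3p, mmu-miR-29c-3p, efu-miR-29c and ola-miR-29c. The chicken names of miR-29a and miR-29c thus had the same reads in every library, and neither can be given a level of its own. The set is called miR-29a/c here. A further name, ola-miR-29a, differed from it by 9 of its 660 reads over all libraries. The next set, miR-29b, was listed under hsa-miR-29b-3p, dre-miR-29b and ppy-miR-29b, and ranked 341. The human name hsa-miR-29a-3p, shared with ggo-miR-29a and oar-miR-29a, had reads of its own and ranked 429. A low pair of miR-29b names, bbe-miR-29b-3p and bfl-miR-29b-3p, differed from each other by 2 reads over all libraries and ranked 439 and 440. The name abu-miR-29d ranked 510.

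The level of miR-29a/c in RPM varied little. It had 14.6, 11.3 and 11.8 RPM in CR replicates 1 to 3, from 166, 17 and 118 reads, and 10.2, 17.3 and 15.4 RPM in TB replicates 1 to 3, from 58, 162 and 139 reads. TB replicate 1 was the lowest library and TB replicate 2 the highest, so that the TB values enclosed those of CR. The mean was 12.6 ± 1.75 RPM in CR and 14.3 ± 3.72 RPM in TB (SD, n = 3 each), and the highest library stood 1.71 times above the lowest. This range depends on the scaling. TMM scaling divides RPM by a factor of 0.531 in CR replicate 3, 1.70 in TB replicate 1 and 2.97 in CR replicate 2. Such scaling lowers CR replicate 2 and TB replicate 1 against the others, so that miR-29a/c would range more widely. The log2 fold change, CR over TB, of RPM + 1 was -0.15 ± 0.59 (SE, limma adjusted p = 0.999 by the Benjamini-Hochberg method over the 662 tested names). Adding 1 RPM understates the changes of names as low as these. Without CR replicate 2 and TB replicate 1 the means were 13.2 RPM in CR and 16.4 RPM in TB, with a log2 fold change of -0.30 ± 0.35 (SE, limma adjusted p = 0.997).

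For miR-29b, which acts on the same collagen targets, the libraries were far less alike. It had 10.4, 3.33 and 11.3 RPM in CR replicates 1 to 3, from 118, 5 and 113 reads, and 1.23, 14.5 and 15.2 RPM in TB replicates 1 to 3, from 7, 135 and 137 reads. CR replicate 2 and TB replicate 1 were the low libraries, and their 95% Wilson intervals (1.42 to 7.80 RPM and 0.594 to 2.53 RPM) lay below those of the other 4 libraries, which began at 8.65 RPM. These intervals cover counting error only. Over the 6 libraries miR-29b varied 12.4-fold. The mean was 8.33 ± 4.35 RPM in CR and 10.3 ± 7.86 RPM in TB (SD, n = 3 each), and the groups overlapped. The log2 fold change was 0.040 ± 0.99 (SE, limma adjusted p = 0.999), positive although the mean RPM was lower in CR, and it turned to -0.11 after TMM scaling. Without TB replicate 1 alone it was -0.90. Without CR replicate 2 and TB replicate 1 the means were 10.8 RPM in CR and 14.8 RPM in TB, and the log2 fold change was -0.42 ± 0.34 (SE, limma adjusted p = 0.997), so that this lower value in CR was not past the threshold.

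In RPM, the low miR-29b pair had a like pattern in TB but not in CR. The name bbe-miR-29b-3p had 2.63, 2.67 and 3.60 RPM in CR replicates 1 to 3 and 0.350, 2.89 and 3.77 RPM in TB replicates 1 to 3. TB replicate 1 was low again, with 2 reads, whereas CR replicate 2, with 4 reads, stood beside the other CR libraries. The log2 fold change was 0.43 ± 0.61 (SE, limma adjusted p = 0.999), and -0.076 without CR replicate 2 and TB replicate 1.

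In RPM, the human name of miR-29a went the opposite way across libraries. It had 2.46, 10.7 and 0.700 RPM in CR replicates 1 to 3, from 28, 16 and 7 reads, and 3.68, 0.535 and 0.333 RPM in TB replicates 1 to 3, from 21, 5 and 3 reads. CR replicate 2 and TB replicate 1 were the highest libraries, and the groups overlapped. In RPM this set spanned a 32.0-fold range, the widest of the 7 sets described here. Both the range and the order of libraries depend on the scaling. TMM scaling divides RPM by 2.97 in CR replicate 2, 1.70 in TB replicate 1, 0.772 in CR replicate 1 and 0.637 in TB replicate 3. Such scaling would narrow this range, widen that of miR-29b, and put TB replicate 1 below CR replicate 1 for this set. Its mean was 4.61 ± 5.32 RPM in CR and 1.52 ± 1.88 RPM in TB (SD, n = 3 each), and its log2 fold change was 0.95 ± 0.88 (SE, limma adjusted p = 0.999). Without CR replicate 2 and TB replicate 1 it was at 2.46 and 0.700 RPM in CR and at 0.535 and 0.333 RPM in TB, a log2 fold change of 0.76 ± 0.43 (SE, limma adjusted p = 0.975). The direction given for miR-29a therefore depends on the name, at -0.15 for the chicken and 0.95 for the human name, neither of which passed the threshold.

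The name abu-miR-29d, a miR-29d entry from a cichlid fish, was among those the study selected as differing between the groups in these libraries, so its group difference is given as a description. It had 1.67, 3.33 and 1.20 RPM in CR replicates 1 to 3, from 19, 5 and 12 reads, and 0.350, 0.857 and 0.222 RPM in TB replicates 1 to 3, from 2, 8 and 2 reads. In RPM, every CR library lay above every TB library. This separation depends on the scaling. TMM scaling divides RPM by 2.97 in CR replicate 2 and by 0.760 in TB replicate 2, which brings both to about the same level. The mean was 2.07 ± 1.12 RPM in CR and 0.476 ± 0.34 RPM in TB (SD, n = 3 each), from 36 and 12 reads in all. The difference of mean log2 values, CR minus TB, was 1.02, and it lay between 0.74 and 1.23 with each library left out in turn. Without CR replicate 2 and TB replicate 1 it was 0.69, with means of 1.43 RPM in CR and 0.539 RPM in TB. As the groups did not overlap in RPM, leaving libraries out could not turn its sign, so these values do not test the difference. Counting error separated some single libraries and not others. The 95% Wilson interval of 0.687 to 2.10 RPM in CR replicate 3 overlapped that of 0.434 to 1.69 RPM in TB replicate 2, while that of 1.42 to 7.80 RPM in CR replicate 2 lay above that of 0.0608 to 0.809 RPM in TB replicate 3. With at least 10 reads in 2 libraries only, abu-miR-29d missed the requirement of 10 reads in 3 libraries that a name needed to be tested. The other miR-29d names had 1 read (bta-miR-29d-5p) and 0 reads (bta-miR-29d-3p) in all.

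**Figure D1:**
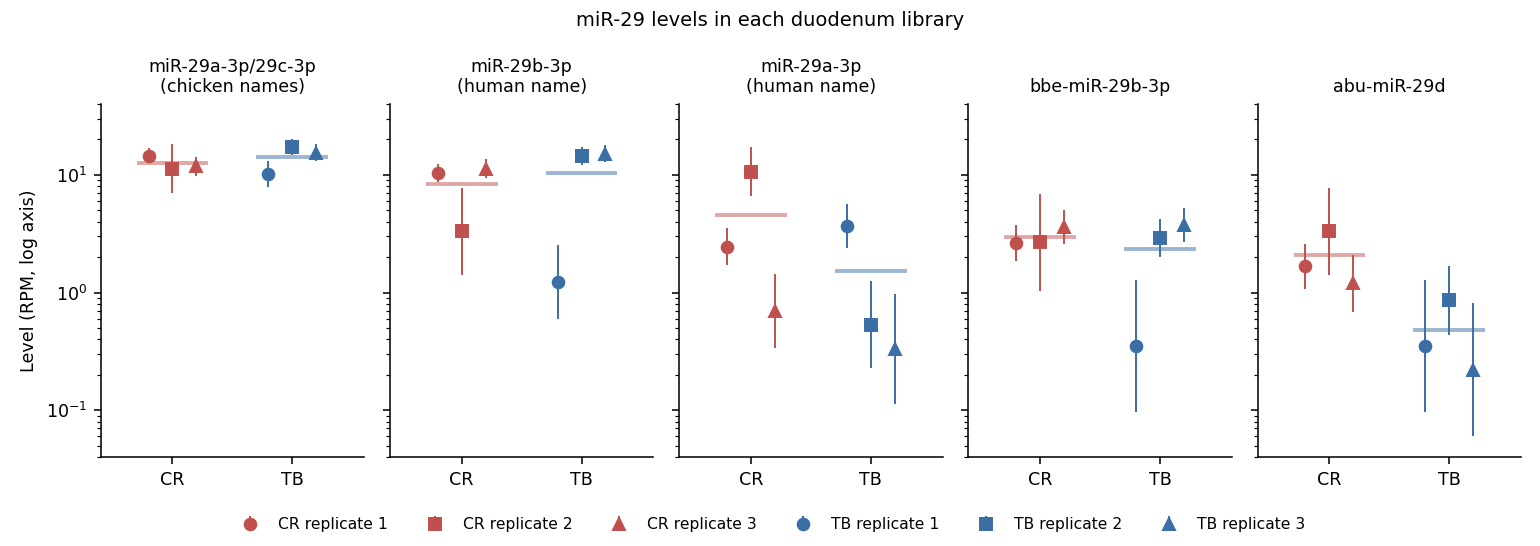
Levels of 5 miR-29 sets in RPM on a log axis, with CR libraries left and TB libraries right. Points are libraries with 95% Wilson intervals, and the line is the group mean. CR replicate 2 and TB replicate 1 are low for hsa-miR-29b-3p (3.33 and 1.23 RPM) and high for hsa-miR-29a-3p (10.7 and 3.68 RPM), while miR-29a/c stays between 10.2 and 17.3 RPM.

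Of the 14 tested miR-29 names (10 or more reads in 3 or more libraries), which form 6 distinct sets, 0 had an adjusted p under 0.05 in limma, where 0.00% of the 662 tested names did. At an unadjusted p under 0.05, 0 of the 14 names passed in limma, 0 in edgeR and 0 in DESeq2, beside 0, 5 and 5 of all 662 names. In limma without CR replicate 2 and TB replicate 1, 0 of the 14 names passed beside 24 of the 662. The fits with all 6 libraries passed few names or none anywhere, so these counts do not show unchanged levels. Of the 6 tested sets, 4 had a positive and 2 a negative log2 fold change, with a median of 0.23 beside 0.052 over all tested names. Without CR replicate 2 and TB replicate 1 this turned to 1 positive and 5 negative, with a median of -0.19 beside -0.11 over all tested names. Among these sets miR-29a/c and ola-miR-29a nearly share their reads, as do bbe-miR-29b-3p and bfl-miR-29b-3p. The sign counts and medians thus do not rest on 6 separate members. In 0 of the 6 tested sets did the groups lie apart, beside 0.604% of tested names with every CR library above every TB library and 1.66% below. The smallest p of a two-sided exact permutation test on RPM among these sets was 0.5, where 3 libraries against 3 cannot give less than 0.1.

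**Figure D2:**
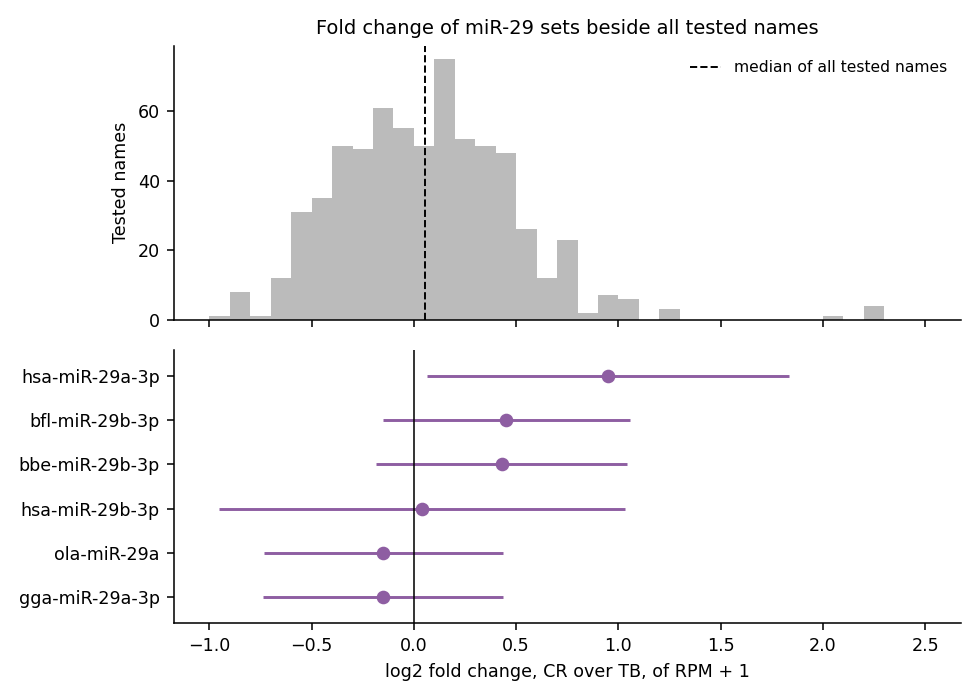
The upper panel counts the 662 tested names by log2 fold change (CR over TB, of RPM + 1), with their median of 0.052 as a dashed line. The lower panel shows the 6 tested miR-29 sets with 1 standard error on each side. They lie between -0.15 (gga-miR-29a-3p) and 0.95 (hsa-miR-29a-3p), inside the spread of all names.

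Comparing the letters within a library removes the scaling between libraries. The order by mean level was miR-29a/c (13.4 ± 2.77 RPM, SD over n = 6), miR-29b (9.31 ± 5.78 RPM) and miR-29d (1.27 ± 1.14 RPM). The set miR-29a/c was above miR-29b in 6 of 6 libraries, by 0.94 ± 1.22 on the log2 scale (two-sided exact sign-flip permutation test, p = 0.03125, the smallest that 6 libraries can give, and 0.0625 adjusted over both neighbours in this order). The difference ran from 0.021 to 3.05, so that both sets were nearly level in some libraries. miR-29b was above abu-miR-29d in 5 of 6 libraries, and in CR replicate 2 both had 5 reads (two-sided exact sign-flip permutation test, p = 0.0625, also 0.0625 when adjusted). Neither step in the order thus passed the threshold after adjustment.

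The ratio of miR-29b to miR-29a/c differed between libraries more than between groups. miR-29b stood at 71.1%, 29.4% and 95.8% of miR-29a/c in CR replicates 1 to 3 and at 12.1%, 83.3% and 98.6% in TB replicates 1 to 3. CR replicate 2 and TB replicate 1 had the lowest shares. The mean log2 ratio was -0.77 in CR and -1.11 in TB, a difference of 0.34 (two-sided exact permutation test, p = 0.9, and 1 adjusted over the 3 ratios computed). It was -0.14 without CR replicate 2 and TB replicate 1. The ratio of miR-29c to miR-29a was 1 throughout, because the most abundant names share their reads.

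The human name of miR-29a relative to miR-29a/c stood at 16.9%, 94.1% and 5.93% in CR replicates 1 to 3 and at 36.2%, 3.09% and 2.16% in TB replicates 1 to 3. It came closest to miR-29a/c in CR replicate 2, with 16 reads beside 17. Relative to miR-29b it exceeded 100% in CR replicate 2 (320%) and TB replicate 1 (300.0%), against 2.19% to 23.7% in the other 4 libraries. For abu-miR-29d the share of miR-29a/c was 11.4%, 29.4% and 10.2% in CR replicates 1 to 3 and 3.45%, 4.94% and 1.44% in TB replicates 1 to 3. These shares of miR-29a/c did not overlap between the groups, as the levels of abu-miR-29d in RPM did not. Relative to miR-29b, abu-miR-29d did overlap, at 10.6% to 100% in CR and 1.46% to 28.6% in TB. Relative to hsa-miR-29a-3p it overlapped too, at 31.25% to 171% in CR and 9.52% to 160% in TB.

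**Figure D3:**
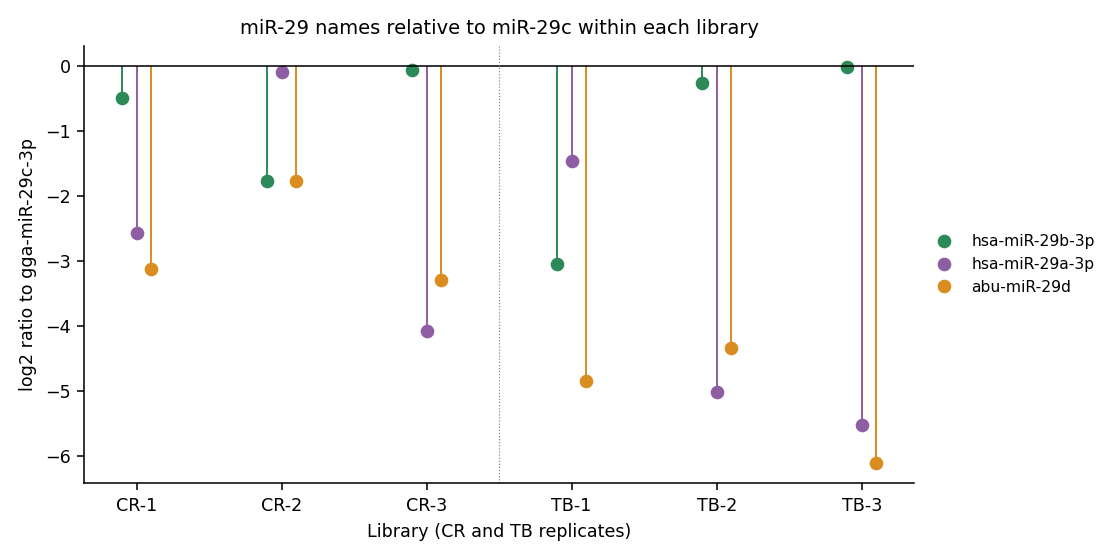
Log2 ratio of hsa-miR-29b-3p, hsa-miR-29a-3p and abu-miR-29d to miR-29a/c (gga-miR-29c-3p) in each library, with CR left and TB right of the dotted line. The ratio of hsa-miR-29b-3p is lowest in CR replicate 2 (-1.77) and TB replicate 1 (-3.05), where that of hsa-miR-29a-3p is nearest to 0 (-0.087 and -1.47).

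The reads came almost wholly from the 3p arm, which carries the collagen-pairing seed. For miR-29a the 5p arm (hsa-miR-29a-5p) had 21 reads beside 660 reads of miR-29a/c, a share of 3.08% (95% Wilson interval 2.03 to 4.67%). It lay between 2.41% and 4.84% in 5 libraries and was 0 of 17 reads in CR replicate 2. For miR-29c the 5p arm (gga-miR-29c-5p) had 1 read beside the same 660 reads, or 0.151% (0.0267 to 0.852%). As names of miR-29a and miR-29c share these 660 reads, neither share is that of a single letter. The human 3p name hsa-miR-29a-3p, with 80 reads, is not counted in them. For miR-29b the 5p arm of the second copy (gga-miR-29b-2-5p) had 7 reads beside 515 reads of miR-29b, or 1.34% (0.651 to 2.74%). TB replicate 1 held 5 of these 7 reads, beside 7 reads of the 3p arm, a share of 41.7% (19.3 to 68.0%). The highest share in another library was 0.877% (0.155 to 4.80%) in CR replicate 3, and in CR replicate 2 it was 0 of 5 reads, with an upper limit of 43.4%. The 5p arm of the first copy (hsa-miR-29b-1-5p) likewise had 3 of its 4 reads in TB replicate 1. Few miR-29b reads of the 3p arm in TB replicate 1 thus stood beside more reads of the 5p arms than in the other libraries.

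Among the 10 untested sets with reads, abu-miR-29d excepted, totals ran from 1 to 21 reads over all libraries and no library exceeded 0.876 RPM. In 2 of these 10 sets every CR library lay above every TB library, beside 0.680% of the 1470 detected names, and in 0 sets every CR library lay below, beside 1.43%. The 2 sets were abu-miR-29d, which the study had selected for this difference, so that nothing is read from the count, and pte-miR-29b-3p, which had 1, 1 and 3 reads in CR replicates 1 to 3 and 0 in TB. A count of 0 allows up to 0.321 to 0.526 RPM in a TB library, and none of the CR values exceeded the level of 3 reads in its library, so the difference was not detectable at this depth. A further 2 names, bta-miR-29d-3p and chi-miR-29c-3p, were listed at 0 in all 6 libraries.

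Abundant miRNAs with patterns like those of the family were sought among 180 distinct sets outside it with a mean of at least 100 RPM, by the root mean square difference over 6 libraries of log2(RPM + 1) after subtracting each name's mean. For miR-29a/c the closest was let-7f, under efu-let-7f (difference 0.16) and 2 names that nearly share its reads. The root mean square of miR-29a/c about its own mean was only 0.25, beside 1.06 for miR-29b and 1.10 for hsa-miR-29a-3p. Names that vary little thus come close to miR-29a/c by this measure. let-7f is an abundant miRNA of differentiated cells, and had 5016, 3193 and 3925 RPM in CR replicates 1 to 3 and 2890, 4647 and 5344 RPM in TB replicates 1 to 3. For miR-29b it was miR-142-5p, a miRNA of white blood cells, under gga-miR-142-5p (difference 0.29) and 2 nearly identical names. It had 316, 87.9 and 237 RPM in CR replicates 1 to 3 and 31.9, 321 and 271 RPM in TB replicates 1 to 3, low in CR replicate 2 and TB replicate 1 as miR-29b was. The blood list of miR-451, miR-223 and miR-142 had reads for 3 of 3 miRNAs and summed to 133 to 366 RPM in CR and to 54.8 to 339 RPM in TB, with miR-223 listed at 0 in 5 libraries. Most of this sum was miR-142. miR-451 did not follow, at 45.3 RPM in CR replicate 2 and 22.9 RPM in TB replicate 1 against 18.5 to 50.5 RPM elsewhere. Low values in these libraries were not particular to this list. miR-215 had 12535 and 11200 RPM there against 91467 to 143915 RPM elsewhere, whereas miR-200b and miR-429 were highest there. The part of the blood list in the level of miR-29b was not tested. For hsa-miR-29a-3p, added after its values were seen, it was bta-miR-27a-3p (difference 0.27), at 179, 476 and 98.2 RPM in CR and 272, 112 and 86.3 RPM in TB. Several marker lists were also highest in CR replicate 2 and TB replicate 1. The fibroblast list of miR-199a and miR-214 summed to 522, 1969 and 318 RPM in CR replicates 1 to 3 and to 1209, 506 and 571 RPM in TB replicates 1 to 3, with 0 of 2 miRNAs at 0. miR-214 alone carried this, at 1518 RPM in CR replicate 2 and 671 RPM in TB replicate 1 against 13.6 to 22.8 RPM elsewhere, while miR-199a stood at 304 to 555 RPM over all libraries. The endocrine list of miR-375 and miR-7 summed to 2718, 7599 and 1445 RPM in CR replicates 1 to 3 and to 4579, 2007 and 1853 RPM in TB replicates 1 to 3. Only miR-375 was high there, at 7310 RPM in CR replicate 2 and 3716 RPM in TB replicate 1 against 233 to 338 RPM elsewhere. miR-7 was lowest in both, at 289 and 862 RPM against 1212 to 2428 RPM elsewhere. The striated muscle list of miR-1, miR-133a and miR-206 summed to 492 to 933 RPM in CR and to 490.1 to 955 RPM in TB, and the pancreas list of miR-216a, miR-216b and miR-217 to at most 26.0 RPM in CR and at most 53.6 RPM in TB, both with their highest sums in CR replicate 2 and TB replicate 1. In the striated muscle list miR-133a carried this, at 822 and 907 RPM in these libraries against 64.6 to 214 RPM elsewhere. miR-1 was lowest there, at 85.9 and 37.7 RPM against 384 to 473 RPM elsewhere. The liver miRNA miR-122 was also highest in CR replicate 2 (328 RPM) and TB replicate 1 (7.36 RPM), against 1.55 to 5.10 RPM elsewhere. The endothelial miRNA miR-126, under its most abundant name oha-miR-126-5p, was lowest in these libraries, at 639 and 469 RPM. Another miR-126 name, mmu-miR-126a-5p, was highest in CR replicate 2 (216 RPM), with 148 RPM in TB replicate 1 against 114 to 175 RPM elsewhere. The sums of the epithelial and smooth muscle lists were also lowest in these libraries. In the smooth muscle list miR-143 carried this, while miR-145 was highest there, at 941 and 1490 RPM against 559 to 867 RPM elsewhere. The part of these lists in the level of hsa-miR-29a-3p was not tested.

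**Figure D4:**
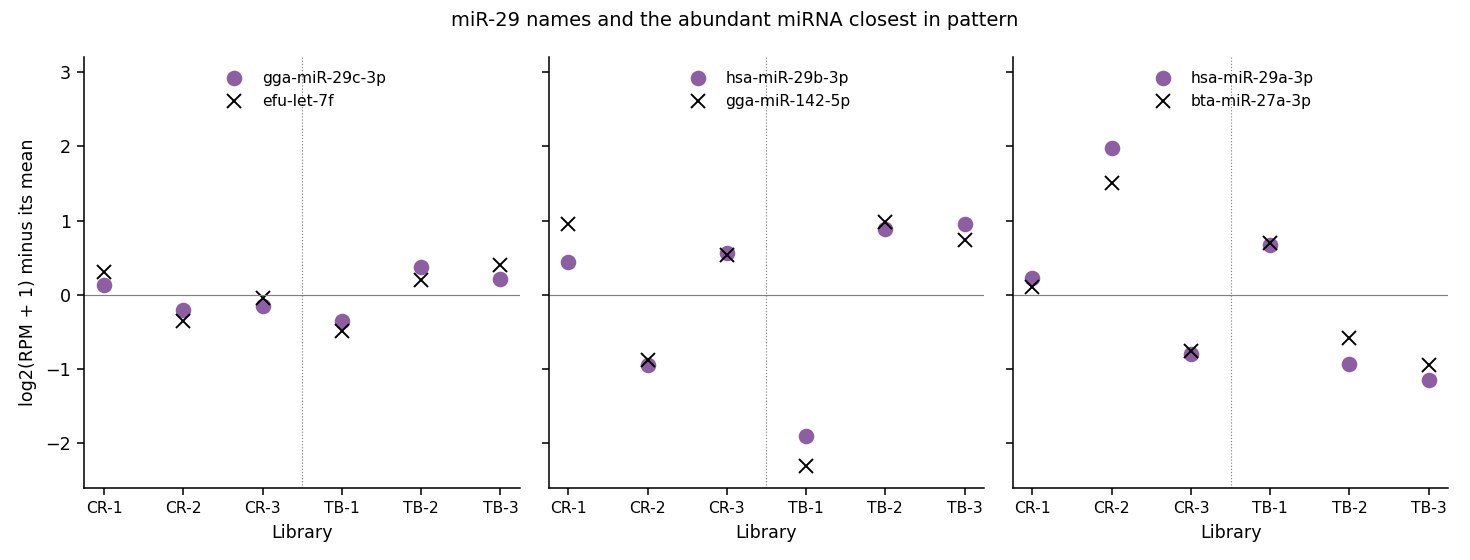
Log2(RPM + 1) minus its mean over 6 libraries for 3 miR-29 names (circles) and the abundant miRNA closest to each in pattern (crosses), with CR left and TB right of the dotted line. miR-142-5p follows hsa-miR-29b-3p within a root mean square difference of 0.29, and both are lowest in TB replicate 1.

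Other miRNAs tied to collagen and fibrosis in mammals had no calls, as in the whole table. Where no name is called at all, this does not show unchanged levels. Of 12 miRNAs on this list, 12 had enough reads and 0 had an adjusted p under 0.05 (limma, and 0 at an unadjusted p under 0.05, beside 0.00% of all tested names at either threshold), with log2 fold changes from -0.83 to 0.44 and a median of -0.30 beside 0.052 over all tested names. In all 12 the groups overlapped, as they did in most tested names (0.604% lay above and 1.66% below). Those mostly called profibrotic were led by miR-21, at 59808 ± 24217 RPM in CR and 60707 ± 31113 RPM in TB (SD, n = 3 each). The median log2 fold change was 0.12 for the profibrotic and -0.36 for the antifibrotic miRNAs. Among those mostly called antifibrotic, miR-26a (gga-miR-26a-5p) had 10352 ± 7205 RPM in CR and 9113 ± 8117 RPM in TB. Its log2 fold change was 0.24, against -0.83 to -0.27 for the other antifibrotic miRNAs. miR-19b (hsa-miR-19b-3p), with the lowest fold change of -0.83, had 49.1 ± 41.3 RPM in CR and 77.0 ± 56.7 RPM in TB.

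**Figure D5:**
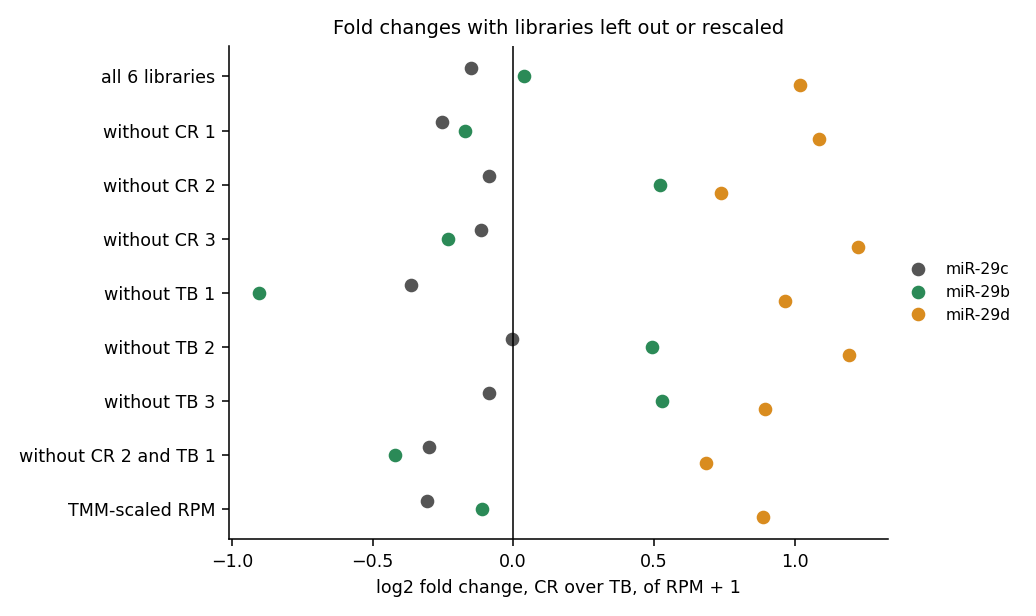
Log2 fold change, CR over TB, of RPM + 1 for the most abundant names of miR-29c, miR-29b and miR-29d (the last a difference of mean log2 values), with all 6 libraries, with libraries left out and after TMM scaling. miR-29b moves between -0.90 (without TB replicate 1) and 0.53 (without TB replicate 3), and miR-29c stays below 0. miR-29d stays above 0, which leaving libraries out could not change, as its groups do not overlap in RPM.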

How the data were processed

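Small RNA of 20 to 30 nt was cut from a gel and made into TruSeq libraries for an Illumina HiSeq platform. The authors deposited 1 table for each library under a column headed TPM. Its values sum to 1000000, and dividing them by their smallest step gave whole reads (100% of values, within 0.1 read), so the deposited values are RPM, although the methods name FPKM, and reads were recovered from them. Aligner, miRNA database and genome build are not given in the sources used here. No miRNA sequence was analysed.

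Names reaching 10 reads in 3 or more of the 6 libraries were tested with limma 3.58.1 (lmFit, eBayes with a trend) on log2(RPM + 1), with Benjamini-Hochberg adjustment over all 662. edgeR 4.0.16 (TMM) and DESeq2 1.42.0 served as alternatives on those reads, and gave 0 of the 662 names an adjusted p under 0.05 and 5 each an unadjusted p under 0.05. Other alternatives were TMM scaling, pseudocounts of 0.5 and 5, no filter, identical rows once, libraries left out and a replicate block. The fits were tested on simulated counts without deviating libraries, which does not show how they perform on these data. They ran in R 4.3.3, and the rest in Python 3.11.15 with scipy 1.17.1, numpy 2.4.6, matplotlib 3.10.9 and pandas 2.3.3.

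Named were every distinct miR-29 set with enough reads to be tested and abu-miR-29d, with the other sets by range, the 3 abundant names closest in pattern, and lists of fibrosis and cell type miRNAs by their name with the highest mean. Members and lists were chosen with earlier results of these data known.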

Additional observations from a re-analysis of the deposited data

How the results depend on the processing

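The number of miR-29 names with an adjusted p under 0.05 was 0 in all 15 alternatives run. It was also 0 over all names tested in each of them, so the family count is nothing particular to miR-29. Without a filter on low reads, 1 of 33 miR-29 names (pte-miR-29b-3p) had an unadjusted p under 0.05 in limma, beside 4 of all 1470 names. Its unadjusted limma p was 0.0466 (adjusted p = 0.998). The log2 fold change of miR-29b reversed from 0.040 to -0.28 with edgeR, -0.25 with DESeq2, -0.11 with TMM-scaled RPM, -0.077 with a pseudocount of 5 and -0.42 without both CR replicate 2 and TB replicate 1, and ran from -0.90 to 0.53 with one library left out, reversed without CR replicate 1, CR replicate 3 or TB replicate 1. That of miR-29a and miR-29c, which share reads, stayed below 0 (-0.36 to -0.0047 with one library left out), except 0.95 for hsa-miR-29a-3p in place of the most abundant name, an alternative added after the data were seen. For abu-miR-29d the difference was above 0 throughout and moved most with a pseudocount of 5, to 0.36. Its sign could not turn with libraries left out or another pseudocount, as the groups do not overlap in RPM. After TMM scaling CR replicate 2 and TB replicate 2 stand at about the same level. For edgeR and DESeq2 it was computed as a plain difference with their scaling factors, as the name was not in their fits. The family median ran from -0.25 (without TB replicate 1) to 0.57 with one library left out. TMM scaling moved the median of all tested names to -0.11, against 0.052. The difference between groups in the log2 ratio of miR-29b to miR-29a, and equally to miR-29c, was -0.14 without both libraries and ran from -0.63 (without TB replicate 1) to 0.88, with -0.017 without CR replicate 3. With hsa-miR-29a-3p in place of the chicken name (added) it was -1.42 for miR-29b to miR-29a and -1.76 for miR-29c to miR-29a. The cause was not tested. The replicate block left the fold changes at 0.040 for miR-29b and -0.15 for miR-29c and changed no call. Same-numbered libraries had correlations of deviations from -0.91 to 0.91 across names. The negative ones each held CR replicate 2 or TB replicate 1, which stood apart from the rest. These correlations therefore cannot show whether the numbers pair libraries. CR replicate 2, with 1500905 reads summed over all names, limits the precision of every value, as 5 reads there stand for 3.33 RPM.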
